A study of Mus musculus with 23 samples.

Results

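Immediate-early genes were followed across 23 liver arrays of male C3H mice: Egr1, Fos, Fosb, Jun, Junb, Atf3, Ier2, Ier3 and Dusp1. They are 9 of the 18193 genes with a probe set of their own, found by the array's gene symbols, and 10 of the 34945 probe sets assigned to exactly 1 gene belonged to these 9 genes. Jun had 2 probe sets and each other gene had 1, and none was shared with another gene. Wild-type mice and mice with a hepatocyte knockout of Ctnnb1, which encodes beta-catenin, were fed 0.05% phenobarbital for 12 weeks or a diet without it, and the labels also give water as the vehicle of the controls. The groups held 5 wild-type arrays without phenobarbital, 4 wild-type arrays with it, 7 knockout arrays without it and 7 with it. In the knockout, Cre driven by the albumin promoter, which is active in hepatocytes, acted on loxP sites in the introns flanking exons 3 and 6 of Ctnnb1. Both transgenic lines had been crossed onto C3H/N for 5 generations, and the labels describe the promoter as specific to hepatocytes, so cells without it keep beta-catenin. The ages of the mice are not given in the sources used here. The labels number the samples of a group without saying that each came from its own animal, so p-values here cover only sample-to-sample spread, which may be technical.

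Immediate-early genes are transcribed within minutes of a growth factor, a hormone or cell stress, with no need for new protein. Serum response factor and its Ets partners, activated by MAP kinases, and the cAMP-responsive factor CREB drive many of them. Their products include transcription factors, namely the zinc finger protein Egr1 and the Fos and Jun proteins that pair to form AP-1, and proteins that end the response, such as the phosphatase Dusp1. In liver they are known for their rapid rise after partial hepatectomy and injury. Phenobarbital acts on hepatocytes through the constitutive androstane receptor, in part by blocking the epidermal growth factor receptor that lies upstream of MAP kinase.

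The arrays were of even scale and the tissue matched its label. Signals are log2 values of robust multi-array averaging, and the median of an array lay between 5.09 and 5.14. The 5 hepatocyte markers tested had a mean between 13.87 and 14.02 on every array. Cyp2b10, the usual cytochrome P450 target of phenobarbital, rose by 6.96 on the log2 scale in wild type (SE 0.37, adjusted p = 1.7e-11) and by 3.01 in knockout (SE 0.29, adjusted p = 2.2e-06). Without phenobarbital its mean was already 9.75 in knockout against 5.68 in wild type (change 4.06, SE 0.32, adjusted p = 1.1e-08). With phenobarbital the means were 12.76 and 12.64 (adjusted p = 0.842), so the smaller rise in knockout started from a higher level. Ctnnb1 had a signal of 12.20 ± 0.024 (SD, n = 5) in wild-type and 12.25 ± 0.11 (SD, n = 7) in knockout liver without phenobarbital. Arrays of this kind read mainly the 3' end of a transcript and the position of this probe set within Ctnnb1 was not used here, so the level was not taken as a check of the knockout. The mean of 11 macrophage and Kupffer cell markers was 6.45 to 7.16 on the wild-type arrays, 9.14 to 9.87 on knockout control arrays 1, 2, 6 and 7, and 7.28 to 7.43 on the other 3 knockout controls. On the knockout arrays with phenobarbital it ran from 7.18 to 9.39. Knockout controls 7, 6 and 2 also had the lowest weights when arrays were weighted by their fit, at 0.21, 0.324 and 0.54, and named calls between genotypes that were lost without them, and counts that moved by over 1.5 times, are given both ways.

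Egr1, a zinc finger transcription factor that responds to growth factor and MAP kinase signals, was strongly lower in wild-type liver with phenobarbital. Its probe set maps to chromosome 18. The signal was 10.67, 11.09, 10.85, 10.25 and 10.92 on the 5 wild-type control arrays, and 7.53, 6.92, 6.64 and 6.52 on the 4 arrays with phenobarbital. Every wild-type array with phenobarbital lay below every wild-type control, as for 5.56% of all genes. The group means were 10.76 ± 0.32 (SD, n = 5) and 6.90 ± 0.45 (SD, n = 4), a change of -3.85 (SE 0.44, adjusted p = 7.5e-06) or a 14.5-fold lower signal. Egr1 had the largest fall of all 13826 genes tested. In whole liver, fewer cells that express a gene and less RNA per cell cannot be told apart.

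In knockout liver the Egr1 change with phenobarbital was smaller than in wild type by the test of the difference. The signal ranged from 9.73 to 12.00 with a median of 10.80 on the 7 knockout controls, and from 8.66 to 11.12 with a median of 10.26 on the 7 knockout arrays with phenobarbital. These ranges overlapped, although arrays 3 and 4 of the phenobarbital group, at 8.66 and 9.18, were below every control of either genotype. The change was -0.64 (SE 0.35, 95% interval -1.37 to 0.10, adjusted p = 0.426), so a fall of up to 1.37 lies within its interval. The difference between the genotypes in the phenobarbital effect, knockout minus wild type, was 3.22 (SE 0.57, 95% interval 2.04 to 4.39, adjusted p = 0.0047), the largest positive difference of the genes tested. This test of the difference passed under all 35 alternative settings, with values from 3.02 to 3.46 and adjusted p from 0.00079 to 0.018.

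**Figure D1:**
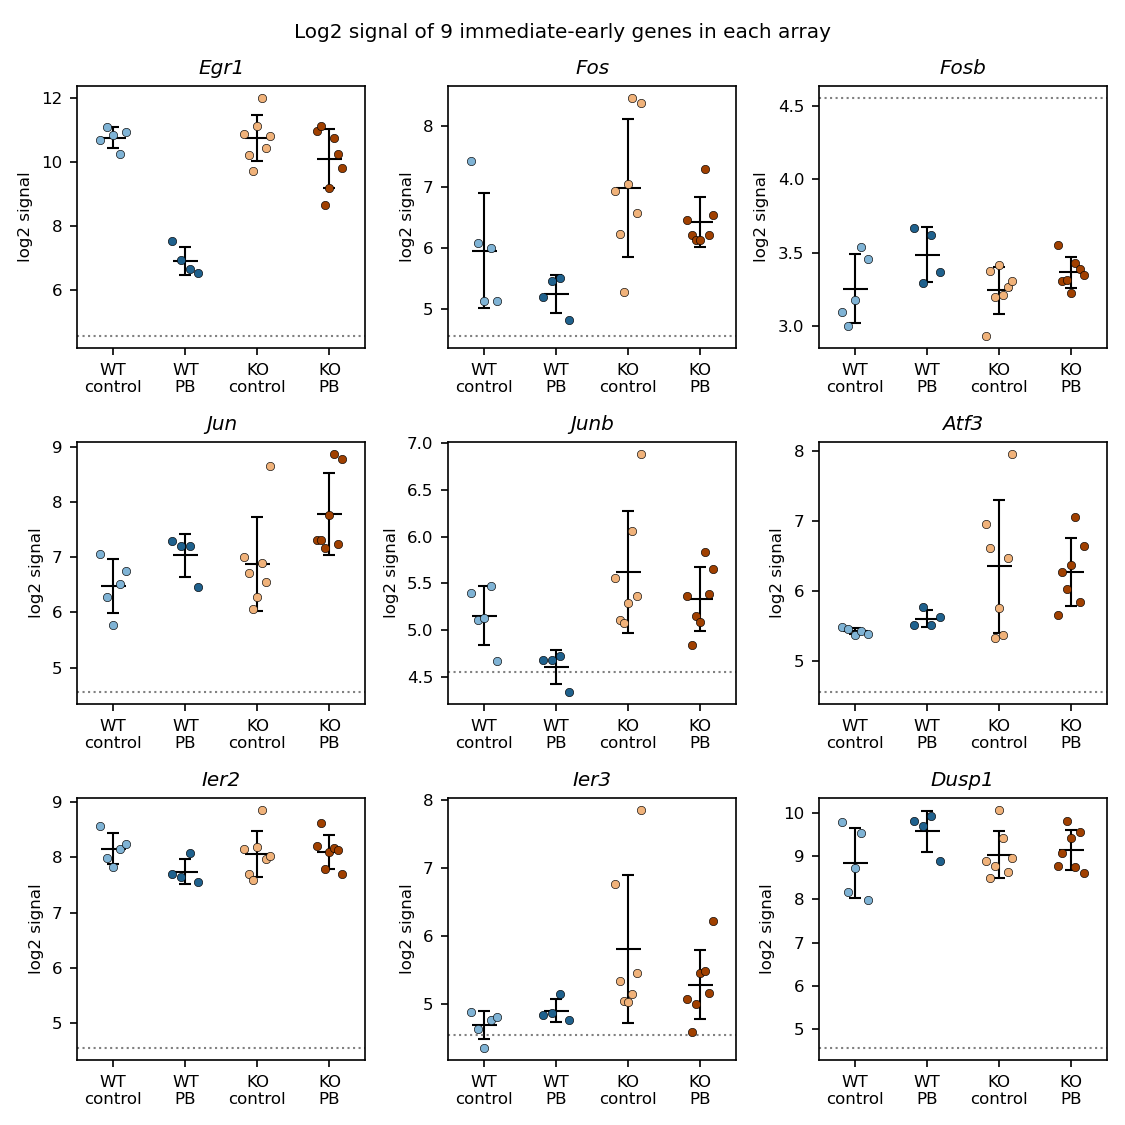
Log2 signal (y axis of each panel) of the 9 immediate-early genes on every array, by genotype and diet (x axis). Points are arrays, horizontal lines and bars are the mean and 1 SD, and the dotted line is the mean level of 4.56 that a gene had to exceed to be tested. The 4 wild-type arrays with phenobarbital sit between 6.52 and 7.53 for Egr1, below all other arrays, and all points of Fosb lie under the dotted line.

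Egr1 was the only member called changed by phenobarbital in wild type: of the 8 members tested, 1 was lower and none was higher in limma's test, and no other member had an unadjusted p under 0.05. In the same comparison 3.85% of all genes were called, 1.9% lower and 1.95% higher. In knockout liver none of the 8 was called, and 1, Jun, had an unadjusted p under 0.05, where 2.05% of all genes were called, 1.17% higher and 0.882% lower. The interaction was called for Egr1 alone among the 8, against 0.875% of all genes. The median change over the 8 members was -0.12 in wild type and -0.19 in knockout, and that over all genes was 0.01 in both.

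**Figure D2:**
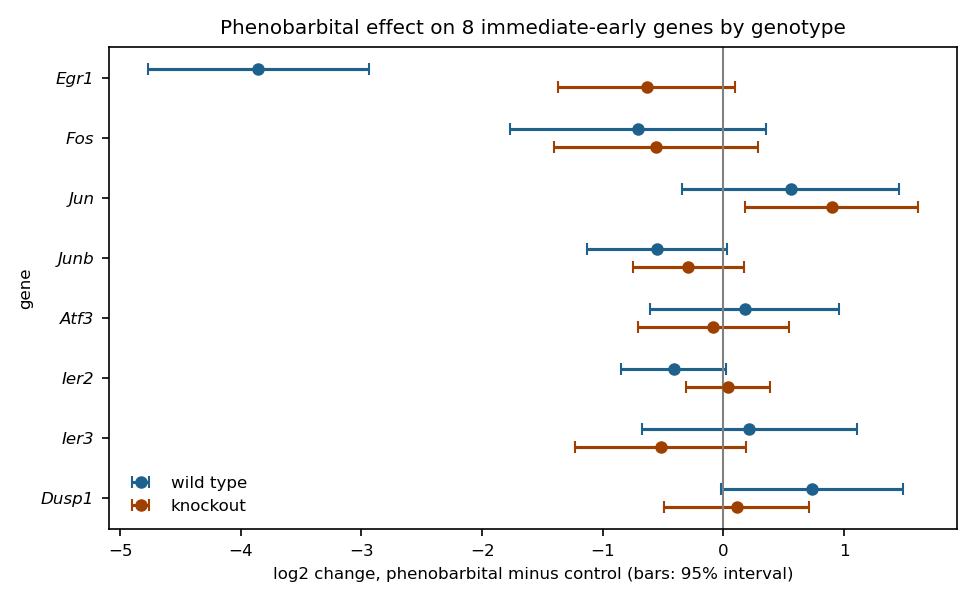
Phenobarbital effect (log2 change, phenobarbital minus control, x axis) on the 8 immediate-early genes tested (y axis), in wild type and knockout. Points are the fitted changes and bars their 95% intervals. The wild-type interval of Egr1, from -4.77 to -2.94, lies apart from its knockout interval, which ends at 0.10, and the intervals of the other 7 genes overlap between genotypes.

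Fos, the partner of Jun proteins in AP-1, had no called change with phenobarbital. Its signal was 7.43, 6.08, 5.13, 5.99 and 5.14 on the wild-type controls and 5.20, 5.45, 5.51 and 4.82 with phenobarbital. The 4 treated arrays lay inside or just below the wide control range, with control 1 well above the other 4. The change was -0.71 (SE 0.51, 95% interval -1.77 to 0.36, adjusted p = 0.588). On the knockout arrays Fos ran from 5.29 to 8.46 with a median of 6.94 without phenobarbital, and from 6.13 to 7.30 with a median of 6.22 with it. The treated arrays fell inside the control range, and the change was -0.56 (SE 0.41, adjusted p = 0.577). Fosb, a close relative of Fos, had a signal between 2.93 and 3.67 on all 23 arrays, under the filter level of 4.56, and was not tested.

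Junb, a Jun family member that can restrain Jun, was 5.40, 5.11, 5.13, 5.47 and 4.67 on the wild-type controls and 4.68, 4.69, 4.73 and 4.34 with phenobarbital. Control 5 lay among the treated arrays and the other 4 controls lay above them. The change of -0.55 (SE 0.28) had an adjusted p of 0.361. On the knockout arrays Junb ran from 5.08 to 6.89 with a median of 5.37 without phenobarbital and from 4.85 to 5.84 with a median of 5.37 with it, and these ranges overlapped (change -0.29, SE 0.22, adjusted p = 0.602).

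Jun, the core AP-1 subunit, was measured by 2 probe sets. The brighter one read 7.06, 6.29, 5.77, 6.52 and 6.75 on the wild-type controls and 7.29, 7.20, 7.20 and 6.46 with phenobarbital. Array 4 of the treated group lay within the control range and the other 3 lay above it, with a change of 0.56 (SE 0.43, adjusted p = 0.624). The dimmer probe set read 6.58, 5.98, 6.04, 5.99 and 6.59 against 6.94, 7.11, 7.14 and 6.71. By that probe set all treated arrays were above all controls, as for 6.04% of all genes, but its change of 0.74 (SE 0.36) had an adjusted p of 0.31 over 24089 probe sets. The probe sets gave the same direction and neither was called.

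In knockout liver the brighter Jun probe set ran from 6.07 to 8.65 with a median of 6.72 without phenobarbital and from 7.18 to 8.87 with a median of 7.31 with it. Control 7, at 8.65, stood far above the other controls, and the treated arrays 5 and 7, at 8.87 and 8.78, stood above their group. The change was 0.90 (SE 0.35, 95% interval 0.18 to 1.62, adjusted p = 0.205). Without knockout control 7 it was 1.20 (adjusted p = 0.0259), and without knockout controls 2, 6 and 7 it was 1.22 (adjusted p = 0.0365), so whether Jun passed depended on those arrays. By the dimmer probe set the change was 0.52 (SE 0.28, adjusted p = 0.396). The Jun interaction was 0.34 (SE 0.55, 95% interval -0.81 to 1.49, adjusted p = 0.924), and a difference of that size or its opposite lies within the interval.

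Atf3, a stress-induced factor of the ATF/CREB family that can repress its targets, was not called in either genotype. It read 5.48, 5.46, 5.38, 5.43 and 5.39 on the controls and 5.51, 5.77, 5.51 and 5.63 with phenobarbital. All treated arrays were higher, but by little: the change was 0.18 (SE 0.38, adjusted p = 0.910), and the arrays of 11.6% of all genes did not overlap in this comparison. On the knockout arrays Atf3 ran from 5.33 to 7.96 with a median of 6.48 without phenobarbital and from 5.66 to 7.06 with a median of 6.27 with it. The ranges overlapped and the change was -0.08 (SE 0.30, adjusted p = 0.934).

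Ier2, a nuclear protein of the early growth response, read 8.56, 7.99, 7.82, 8.14 and 8.24 on the wild-type controls and 7.69, 7.65, 8.07 and 7.55 with phenobarbital. Of the treated arrays, 3 lay below every control and array 3 lay among them, with a change of -0.41 (SE 0.21, adjusted p = 0.357). Ier3, a stress-induced regulator of cell survival, read 4.89, 4.63, 4.36, 4.78 and 4.81 against 4.84, 4.87, 5.15 and 4.77, close to the filter level, and the arrays overlapped (change 0.21, SE 0.43, adjusted p = 0.898). In knockout liver Ier2 ran from 7.58 to 8.85 without and from 7.69 to 8.62 with phenobarbital, with medians of 8.02 and 8.13 (change 0.04, SE 0.17, adjusted p = 0.950). Ier3 ran there from 5.03 to 7.85 and from 4.60 to 6.22, with medians of 5.35 and 5.17 (change -0.52, SE 0.34, adjusted p = 0.527). Neither gene was called in either genotype.

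Dusp1, a phosphatase that switches off MAP kinases, read 9.79, 8.17, 8.72, 9.54 and 7.99 on the wild-type controls and 9.81, 9.69, 9.92 and 8.88 with phenobarbital. Treated arrays 1 and 3 lay just above the top control and arrays 2 and 4 lay among the controls, and the change was 0.73 (SE 0.36, 95% interval -0.02 to 1.49, adjusted p = 0.340). On the knockout arrays it ran from 8.49 to 10.07 with a median of 8.90 and from 8.61 to 9.82 with a median of 9.08, and the ranges overlapped (change 0.11, SE 0.29, adjusted p = 0.906).

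Promoter sequence of 7 of the 9 members was found in RefSeq (GRCm38.p6) as windows of 250 bases before to 50 after the start. Shown are 4 of the 5 members that share letters of the cAMP response element. Fosb, which was not tested for a change, has them too and is not shown. Egr1 and Ier2 had no window, so no motif was searched for in their promoters. The motif core TGACG, searched on both strands, was in the windows of Atf3, Fosb, Junb, Fos and Dusp1, 5 of the 7, and in 20.8% of 32851 promoters of that length. The whole palindrome TGACGTCA, which contains that core on each strand, was in Dusp1 alone among the 7 and in 1.79% of promoters. The Egr motif GCGNGGGCG was in Fosb alone and in 5.55% of promoters, and the AP-1 motif TGANTCA and the CArG box of serum response factor were in none of the 7, against 7.81% and 1.63%. The 150 bases before the start are shown 5' to 3' on the gene's strand, with TGACG, its reverse complement CGTCA or the palindrome in capitals, for Fos (chr12:85473740-85473889, plus strand), Junb (chr8:84978749-84978898, minus strand), Atf3 (chr1:191183334-191183483, minus strand) and Dusp1 (chr17:26508473-26508622, minus strand).
Fos: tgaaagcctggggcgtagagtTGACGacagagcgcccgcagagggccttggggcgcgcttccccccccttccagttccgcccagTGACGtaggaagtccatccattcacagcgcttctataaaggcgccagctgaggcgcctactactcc
Junb: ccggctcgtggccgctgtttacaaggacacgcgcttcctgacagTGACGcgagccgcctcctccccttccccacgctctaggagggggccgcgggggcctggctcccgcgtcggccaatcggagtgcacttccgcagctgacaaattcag
Atf3: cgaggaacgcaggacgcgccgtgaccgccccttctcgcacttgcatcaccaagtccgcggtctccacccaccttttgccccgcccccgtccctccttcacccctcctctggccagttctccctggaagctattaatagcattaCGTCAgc
Dusp1: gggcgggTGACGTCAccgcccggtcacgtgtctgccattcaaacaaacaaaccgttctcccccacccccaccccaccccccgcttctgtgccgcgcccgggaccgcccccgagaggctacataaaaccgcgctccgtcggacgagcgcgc
The capitals lie at different distances from the start, with 2 stretches in Fos and 1 each in Junb, Atf3 and Dusp1. Of the 5 members with these letters Fosb was not tested. The fitted changes of the other 4 with phenobarbital in wild type were -0.71 for Fos, -0.55 for Junb, 0.18 for Atf3 and 0.73 for Dusp1, none of them called. A match describes letters and is not evidence of binding in these livers.

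Knockout was then set against wild type on the same diet. Without phenobarbital, 2 of the 8 members, Atf3 and Ier3, were called higher and none lower, where 25% of all genes were called and 14.8% were called higher. Ier3 was 4.69 ± 0.21 (SD, n = 5) in wild type and 5.81 ± 1.08 (SD, n = 7) in knockout, and every knockout array was above every wild-type array, as for 6.98% of all genes, with 3.65% the other way. Its change was 1.12 (SE 0.38, adjusted p = 0.0341). Atf3 was 5.43 ± 0.045 (SD, n = 5) and 6.35 ± 0.95 (SD, n = 7), with knockout controls 3 and 5 no higher than the wild-type arrays, and its change was 0.92 (SE 0.33, adjusted p = 0.0447). Both calls were lost without knockout controls 2, 6 and 7, where Ier3 had a change of 0.81 (adjusted p = 0.102) and Atf3 of 0.43 (adjusted p = 0.363), and without knockout control 1, where the adjusted p was 0.0679 and 0.0819.

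Fos averaged 5.95 ± 0.94 (SD, n = 5) in wild type and 6.99 ± 1.14 (SD, n = 7) in knockout without phenobarbital. The arrays overlapped, and the change of 1.03 (SE 0.45) had an adjusted p of 0.0937. It was called without wild-type control 1 (1.40, adjusted p = 0.0267) and without knockout control 3 (1.32, adjusted p = 0.0206). Egr1 did not differ beyond its spread, with a change of -0.02 (SE 0.39, 95% interval -0.82 to 0.78, adjusted p = 0.978). Jun, Junb, Ier2 and Dusp1 had changes of 0.40, 0.47, -0.09 and 0.20, none of them called.

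With phenobarbital, Egr1 was 9.19-fold higher in knockout than in wild type, at 10.10 ± 0.93 (SD, n = 7) against 6.90 ± 0.45 (SD, n = 4). All 7 knockout arrays were above all 4 wild-type arrays, and the change was 3.20 (SE 0.41, adjusted p = 1.3e-05). It was the only called member of the 8, where 20% of all genes were called and 11.9% were called higher and 8.12% lower. Fos and Junb also had every knockout array above every wild-type array, so that 3 members did not overlap, against 18.6% of all genes, 11.2% higher and 7.38% lower. Junb had a change of 0.73 (SE 0.26, adjusted p = 0.0533) and Fos one of 1.18 (SE 0.48, adjusted p = 0.0844), which did not pass. This comparison and that of phenobarbital within wild type share the 4 treated wild-type arrays. The call of Junb depended on the knockout controls, which add only to the pooled variance here: without knockout control 7 its adjusted p was 0.0089, and without controls 2, 6 and 7 it was 0.0079, at the same change of 0.73.

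Markers of other cell types moved with genotype beside these genes. Of the 11 macrophage and Kupffer cell markers, 10 were called higher in knockout than in wild type without phenobarbital and 8 with it, and none was called with phenobarbital in either genotype. Of 6 endothelial markers, 5 were called higher in knockout without phenobarbital and 4 with it, and their mean was 6.63 to 6.97 on the wild-type controls and 7.40 to 8.21 on the knockout controls. Of 7 stellate cell and scar markers, 5 were higher without phenobarbital and 4 with it, with means of 6.77 to 7.002 and 7.57 to 8.85 on the same arrays. Of 3 cholangiocyte and 3 neutrophil markers tested, 2 of each were higher without phenobarbital and 1 of each with it. Of 5 lymphocyte markers tested, 1 was higher and 1 lower without phenobarbital and none was called with it. The neutrophil mean, over 4 markers with the untested Mpo, was 4.56 to 4.82 on the wild-type controls. It was 5.18 to 7.13 on the knockout controls, the highest on array 7. That array also had the highest signals of Jun, Junb, Atf3 and Ier3 among the knockout controls. Within the 7 knockout controls Atf3 and the neutrophil mean had r = 0.95 (exact permutation p = 0.0054, adjusted p = 0.484 over 108 relations; rho = 0.86, p = 0.0238, adjusted p = 0.818), and 0.845 without arrays 3 and 7. Atf3 and the lymphocyte mean had r = 0.85 (exact permutation p = 0.0109, adjusted p = 0.484; rho = 0.86, p = 0.0238, adjusted p = 0.818), and 0.952 without arrays 2 and 7. That mean was over 7 lymphocyte markers, with the untested Cd3g and Cd79a. With the macrophage mean Atf3 had r = 0.82 (exact permutation p = 0.0314, adjusted p = 0.484; rho = 0.68, p = 0.11, adjusted p = 0.818). Without the 2 arrays farthest from the median of the macrophage mean, r was 0.61. Egr1 had r = -0.28 (exact permutation p = 0.548, adjusted p = 0.834; rho = -0.21, p = 0.662, adjusted p = 0.965) with the macrophage mean. In the knockout arrays with phenobarbital Atf3 had r = 0.68, 0.08 and 0.70 with the neutrophil, lymphocyte and macrophage means. Jun and Ier3 had r = 0.82 and 0.82 with the neutrophil mean in the knockout controls, and 0.60 and 0.35 with phenobarbital. With the macrophage mean they had 0.48 and 0.56 in the controls, and 0.81 and 0.81 with phenobarbital. None of the 108 relations between members and marker means passed, and the part of these cells in the levels of Atf3, Ier3 and Jun was not tested.

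Most members had a larger spread between arrays of a group than most genes. In the wild-type controls the SD of Fos was 0.94, larger than that of 99.8% of the genes tested, and that of Dusp1 was 0.80, larger than 99.6%. Atf3 was the exception there, with an SD of 0.045 that exceeded only 4.46% of genes, and its SD was 0.95 in the knockout controls, above 97.8%. The SD of Egr1 was 0.32 in wild-type controls, 0.45 in treated wild type, 0.73 in knockout controls and 0.93 in treated knockout. These were above 95.7%, 99.6%, 95.8% and 99% of genes.

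Single arrays were high or low for several members at once, and not the same members each time. Among the wild-type controls, array 1 was the highest for 6 of the 8 members, namely Fos, Jun, Atf3, Ier2, Ier3 and Dusp1, and its Egr1 signal of 10.67 was below that of 3 other controls. Array 4 was the lowest of the wild-type arrays with phenobarbital for 7 of the 8, all but Atf3. Among the knockout controls array 3 was the lowest for 6 of the 8, array 5 was the highest for Egr1, Fos and Ier2, and array 7 was the highest for Jun, Junb, Atf3 and Ier3. Among the knockout arrays with phenobarbital, array 2 was the highest for Egr1 and Ier2 and array 5 for Fos, Jun, Junb and Atf3.

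**Figure D3:**
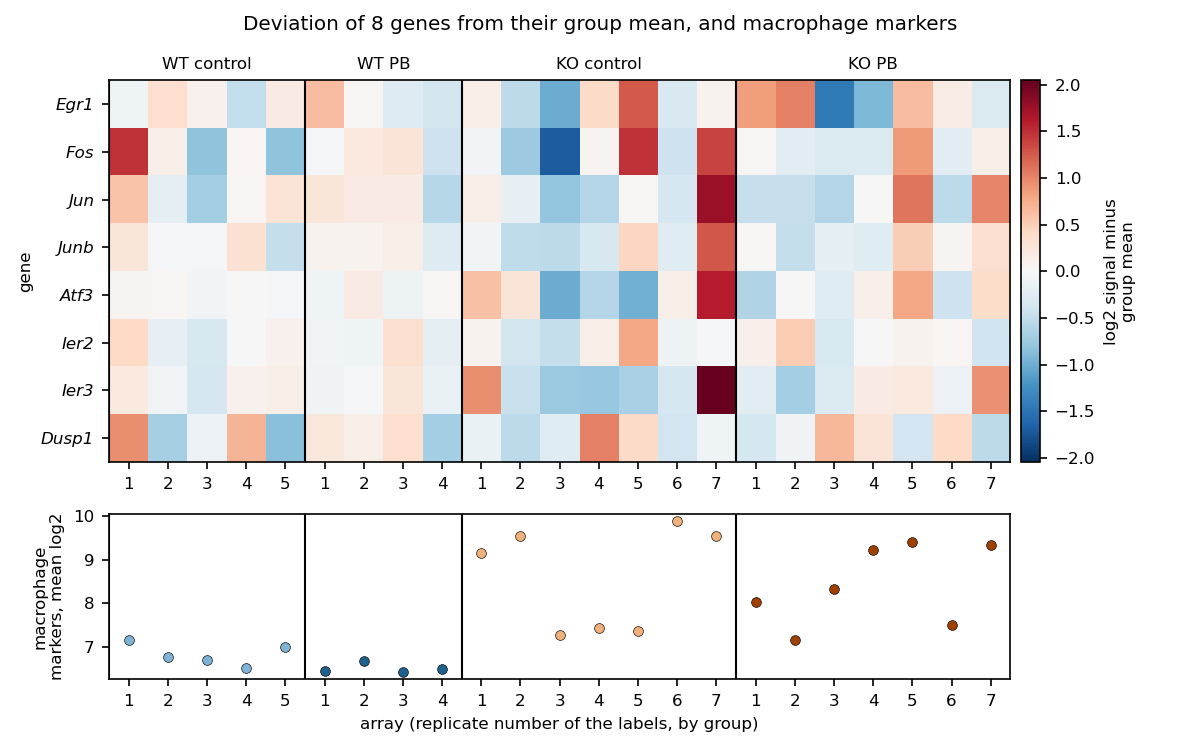
Upper panel: the log2 signal of the 8 genes tested (y axis) minus the group mean, in colour, for each array (x axis, numbered as in the labels within its group). Lower panel: the mean log2 signal of 11 macrophage and Kupffer cell markers on the same arrays. Knockout control 7 is high for Jun, Junb, Fos, Atf3 and Ier3 and near the mean for Egr1 and Ier2, and its marker mean lies with those of controls 1, 2 and 6. Single markers did not all follow that mean. Of the 11, Clec4f was 6.67 on control 7, against 9.18, 8.72 and 9.18 on controls 1, 2 and 6. Adgre1, Cd68 and Lyz2 were high on control 7, at 8.93, 8.22 and 12.37.

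Correlations between members were computed in the knockout groups, which had 7 arrays each, and not in the wild-type groups, which had fewer than 6. Over 36 pairs of the 9 genes in both groups, 72 relations in all, 1 passed: Egr1 and Ier2 in the knockout controls. In order of arrays, Egr1 was 10.88, 10.20, 9.73, 11.13, 12.00, 10.43 and 10.80, and Ier2 was 8.14, 7.69, 7.58, 8.19, 8.85, 7.96 and 8.02. The arrays stood in the same order for both genes. Pearson's r was 0.98 (exact permutation p = 0.000198, the smallest that 5040 pairings can give, adjusted p = 0.0143), and Spearman's rho was 1 (exact permutation p = 0.000397, adjusted p = 0.0286). Without arrays 3 and 5, the farthest from the Egr1 median, r was 0.944. With phenobarbital the same pair had r = 0.74 (exact permutation p = 0.0562, adjusted p = 0.265) and rho = 0.89 (p = 0.0123, adjusted p = 0.176), and r = 0.90 without arrays 3 and 4. The difference between these groups was not tested.

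Other pairs had high coefficients that did not pass over the 72 relations. Egr1 and Fos had r = 0.85 in the knockout controls (exact permutation p = 0.0181, adjusted p = 0.134; rho = 0.89, adjusted p = 0.176), and r = 0.535 without arrays 3 and 5. Array 7, with high Fos and middling Egr1, lay off that relation, and r was 0.986 without it. With phenobarbital r was 0.42 (exact permutation p = 0.371, adjusted p = 0.651; rho = 0.46, adjusted p = 0.64) and 0.0085 without arrays 3 and 4. Fos and Junb had r = 0.86 without phenobarbital (exact permutation p = 0.0071, adjusted p = 0.10; rho = 0.86, adjusted p = 0.176) and 0.82 with it (exact permutation p = 0.0099, adjusted p = 0.102; rho = 0.82, adjusted p = 0.176). Without the 2 arrays farthest from the Fos median these were 0.957 and 0.48.

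Pairs of Jun with Ier3 and Atf3 also did not pass. Jun and Ier3 had r = 0.91 in the knockout controls (exact permutation p = 0.005, adjusted p = 0.0893; rho = 0.82, adjusted p = 0.176), and 0.635 without arrays 3 and 7. Jun and Atf3 had r = 0.83 (exact permutation p = 0.0187, adjusted p = 0.134; rho = 0.79, adjusted p = 0.216), and 0.285 without the same arrays, so that this relation rests on them. With phenobarbital Jun had r = 0.89 with Atf3 (exact permutation p = 0.0036, adjusted p = 0.0857; rho = 0.86, adjusted p = 0.176) and 0.62 without arrays 5 and 7. Egr1 and Dusp1 had r = 0.65 without phenobarbital (exact permutation p = 0.125, adjusted p = 0.409; rho = 0.82, adjusted p = 0.176) and -0.63 with it (exact permutation p = 0.137, adjusted p = 0.428; rho = -0.43, adjusted p = 0.695). Without the farthest 2 arrays these were 0.856 and 0.058. Of the 36 pairs, 24 were positive in the knockout controls and 20 with phenobarbital, with median r of 0.31 and 0.049.

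**Figure D4:**
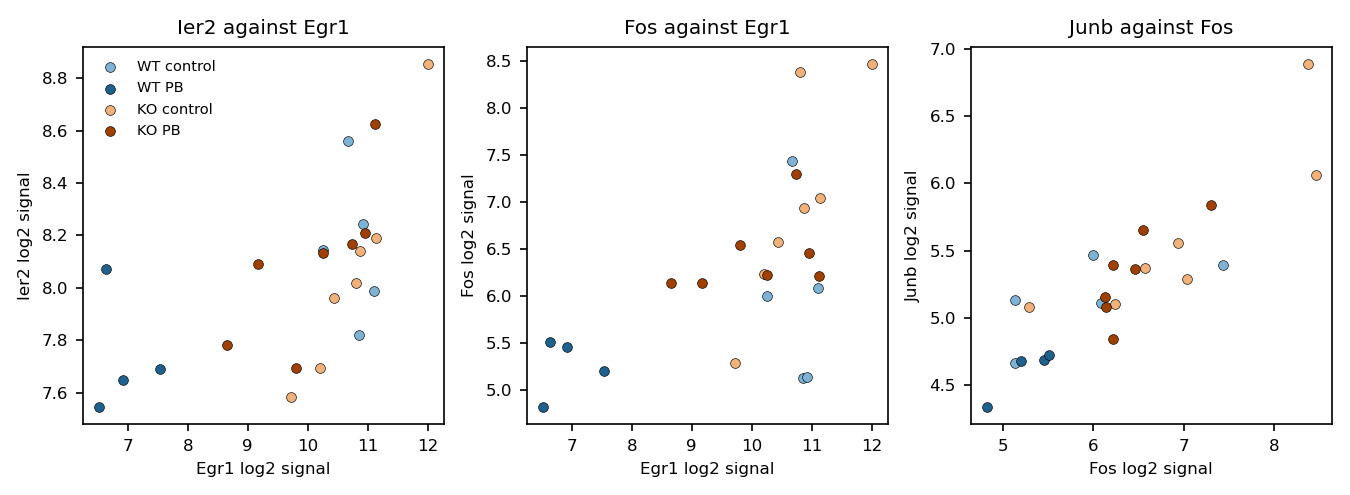
Log2 signal of Ier2 against Egr1, Fos against Egr1, and Junb against Fos, with each point an array coloured by group. Ier2 rises with Egr1 over the 7 knockout controls in the left panel, from 7.58 to 8.85, and in the middle panel 1 knockout control lies high in Fos (8.38) at an Egr1 signal of 10.80.

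Genes that varied with Egr1 apart from the group differences were ranked over all 23 arrays by the correlation of deviations from the group means. This is a description over 13825 genes that share arrays, with no p-value. The 8 genes most like Egr1 were Irf2bp2 (r = 0.77), Igfbp1 (0.74), Syt6 (0.70), Tle6 (0.70), Cdkn2aipnl (0.68), Mef2b (0.68), Wfikkn1 (0.66) and Ier2 (0.65). Ier2 was thus the eighth of 13825, and Fos was at rank 287 (r = 0.45), with Junb at 2041, Jun at 3788, Atf3 at 8027, Ier3 at 8529 and Dusp1 at 8549. The middle 90% of genes lay between -0.36 and 0.38. Fads2, a fatty acid desaturase, Snrnp25 and Mfsd11 were the least like Egr1, at -0.70, -0.70 and -0.69.

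Igfbp1, a secreted binding protein of insulin-like growth factors that hepatocytes make in fasting and stress, read 10.52, 10.54, 10.35, 11.10 and 9.91 on the wild-type controls and 9.43, 9.72, 9.17 and 8.25 with phenobarbital. The treated arrays all lay below the controls, as for 5.56% of all genes, but the change of -1.34 had an adjusted p of 0.149. On the knockout arrays it ran from 9.74 to 12.06 and from 8.54 to 10.90 (change -0.73, adjusted p = 0.395). Irf2bp2, a transcriptional corepressor, had changes of -0.25 in wild type (adjusted p = 0.431) and -0.27 in knockout (adjusted p = 0.245). Neither gene was called.

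Further early genes were taken from lists of the pathway. Of 24 other early transcription factors tested, 1 was called higher and none lower with phenobarbital in wild type, and none was called in knockout, 4.17% and 0% against the 3.85% and 2.05% of all genes. The gene called in wild type was Bhlhe40, a repressor that also acts in the circadian clock. It read 8.41, 7.77, 7.54, 8.45 and 8.46 on the wild-type controls and 8.82, 8.91, 9.20 and 8.92 with phenobarbital. All treated arrays were higher, as for 6.04% of all genes, with a change of 0.84 (SE 0.20, adjusted p = 0.0177). The call was lost without wild-type control 2 or 3 or treated array 3, where the adjusted p reached 0.0833 and the change was at least 0.69. The median change of the 24 genes was 0.05 in wild type and -0.02 in knockout.

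Of 44 other early response and feedback genes tested, 1 was called higher and 2 lower with phenobarbital in wild type, 6.82% against the 3.85% of all genes. Gadd45b, a stress and growth response protein known as a target of the constitutive androstane receptor, read 6.35, 6.24, 5.79, 6.80 and 6.02 on the controls and 8.41, 8.30, 7.99 and 8.18 with phenobarbital. All treated arrays were higher, as for 6.04% of all genes, and the change was 1.98 (SE 0.24, adjusted p = 1.5e-05). In knockout liver Gadd45b was 7.19 ± 0.44 and 7.36 ± 0.39 (SD, n = 7 each), a change of 0.16 (adjusted p = 0.760). The interaction was -1.82 (SE 0.31, adjusted p = 0.0031), the only one called among the 44.

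Nab2, a corepressor that binds Egr1 and is itself reported as an Egr1 target, and Spry4, an inhibitor of receptor tyrosine kinase signalling, fell with phenobarbital in wild type. Nab2 read 6.48, 6.02, 6.09, 6.14 and 6.07 on the controls and 5.56, 5.55, 5.21 and 5.72 with phenobarbital, with no overlap. All treated arrays were lower, as for 5.56% of all genes, and the Nab2 change was -0.65 (SE 0.11, adjusted p = 0.0012). Spry4 read 5.69, 5.64, 4.99, 5.59 and 5.09 and then 3.79, 4.72, 4.48 and 3.55, also with no overlap. Its treated signals of 3.79, 4.48 and 3.55 lay under the filter level of 4.56, where a change is not measured well. The Spry4 change was -1.27 (SE 0.30, adjusted p = 0.0155). The Spry4 call was lost without treated array 1 or 4, with an adjusted p of up to 0.0764. In knockout liver Nab2 was 6.33 ± 0.18 and 6.18 ± 0.12 (SD, n = 7 each; adjusted p = 0.482), and Spry4 was 4.99 ± 0.47 and 4.77 ± 0.51 (SD, n = 7 each; adjusted p = 0.748). The interaction was not called for either. Within groups the correlation with Egr1 was 0.12 for Nab2 and 0.29 for Spry4, inside the range of the middle 90% of genes, -0.36 to 0.38.

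**Figure D5:**
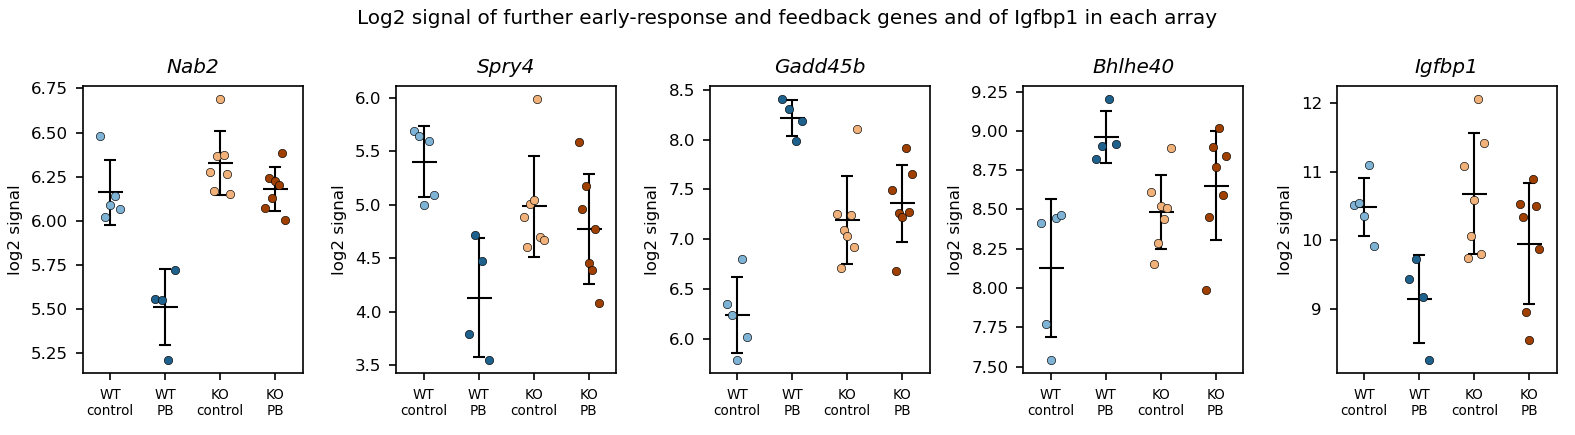
Log2 signal (y axes) of Nab2, Spry4, Gadd45b, Bhlhe40 and Igfbp1 on every array, by genotype and diet (x axis). Points are arrays, and lines and bars are the mean and 1 SD. In wild type the phenobarbital arrays lie apart from the controls in each of the 5 panels, below them for Nab2, Spry4 and Igfbp1 and above them for Gadd45b and Bhlhe40. The arrays of 11.6% of all genes did not overlap in this comparison, 5.56% lower and 6.04% higher. All genes shown but Igfbp1 were called in this comparison, so their separation is no separate evidence.

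Among 28 measured genes of growth factor, MAP kinase and serum response factor signalling, none was called higher and 2 lower with phenobarbital in wild type, 7.14% against 3.85% of all genes. None was called in knockout, against 2.05%. Erbb3, a receptor of the epidermal growth factor receptor family, fell by 0.52 on the log2 scale (SE 0.12, adjusted p = 0.0098) from 10.53 ± 0.21 (SD, n = 5) to 10.004 ± 0.049 (SD, n = 4). Elk4, an Ets partner of serum response factor, fell by 0.19 (SE 0.052, adjusted p = 0.0433), and its call was lost without any 1 of 10 arrays of the 23, with an adjusted p of up to 0.145. Egfr and Srf were not called in any comparison, and their wild-type phenobarbital changes were 0.02 (SE 0.37) and 0.03 (SE 0.073). Of 10 tested genes reported as Egr1 targets, Nab2 was the only one called with phenobarbital in wild type, 10% of the list, and none was called in knockout. Their median change was 0.04 in wild type, against 0.01 for all genes.

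Between genotypes the called shares of these lists are given beside those of all genes. Of the 24 early transcription factors, 8 were higher and none lower in knockout without phenobarbital, 33.3% against 25% of all genes. Without knockout controls 2, 6 and 7, a fit added after the data were seen, 4 were higher, 16.7% against 11.1% of all genes. Id1, an inhibitor of helix-loop-helix factors, was higher by 1.52 (SE 0.29, adjusted p = 0.00069), and Klf2, a factor known from endothelium, by 1.15 (SE 0.23, adjusted p = 0.00097). Without those 3 arrays these changes were 1.18 (adjusted p = 0.011) and 0.88 (adjusted p = 0.0195). With phenobarbital 4 of the 24 were higher, 16.7% against 20%, and 7 without those controls, which add only to the pooled variance there, 29.2% against 29.1%. Of the 44 response and feedback genes, 13 were higher and none lower without phenobarbital, 29.5% against 25%, and 14 were higher and 1 lower with it, 34.1% against 20%. Without knockout controls 2, 6 and 7 the count without phenobarbital was 7, 15.9% against 11.1%. Tnfaip3, a brake on NF-kappaB, was higher by 1.86 (SE 0.62, adjusted p = 0.0332) and Rgs2, a regulator of G protein signalling, by 1.71 (SE 0.42, adjusted p = 0.0064) without phenobarbital. Both calls were lost without knockout controls 2, 6 and 7, where the changes were 0.86 (SE 0.47, adjusted p = 0.264) and 1.04 (SE 0.37, adjusted p = 0.0822). The Tnfaip3 call was also lost without any 1 of 8 arrays, among them knockout controls 1, 2 and 6, with an adjusted p of up to 0.0709. Of 28 signalling genes, 5 were higher and 4 lower without phenobarbital, 32.1% against 25%, and 8 were higher and 3 lower with it, 39.3% against 20%. Without those 3 arrays, 2 were higher and 3 lower without phenobarbital, 17.9% against 11.1%. Of the 10 reported Egr1 targets, 2 were higher without phenobarbital, 20% against 25% of all genes, and 3 with it, 30% against 20%. Without those 3 arrays the count without phenobarbital was 0. Nab2 was among the genes higher with phenobarbital, with a change of 0.67 (SE 0.11, adjusted p = 0.00013). All called response and feedback genes but Gadd45b, lower by 0.86 with phenobarbital, had the direction of the macrophage, endothelial and stellate cell markers, whose part in them was not tested. In knockout liver Dusp4, another MAP kinase phosphatase, was the only response gene called with phenobarbital, 2.27% of the 44 against 2.05% of all genes. It went from 5.57 ± 0.13 to 5.11 ± 0.13 (SD, n = 7 each), with no overlap, as for 0.976% of all genes. The change was -0.46 (SE 0.075, adjusted p = 0.0016). In wild type Dusp4 changed by -0.32 (adjusted p = 0.0639), and it was called there without knockout controls 2, 6 and 7.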

How the data were processed

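Mouse liver RNA was measured on 23 Affymetrix 3' in vitro transcription arrays. The deposited table holds log2 probe set signals, made by the authors with RMA in affy, per the submitters' processing notes; versions and the arrays normalized jointly are not given in the sources used here. They were used as deposited. Of 45037 probe sets, 34945 had 1 gene in the platform annotation, 932 several and 9160 none. No pair of arrays held identical values. The number of arrays limits the precision.

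For each of 18193 genes the brightest probe set on average was used. Genes above the 40th percentile of the array on at least 4 arrays were tested, 13826 in all, with 1 mean per group over all 23 arrays in limma 3.58.1 (R 4.3.3; moderated variances, two-sided). Genes were called at an adjusted p under 0.05, by the Benjamini-Hochberg method over the 13826 genes in each of the 5 comparisons. Intervals are 95%. The fit was tested on simulated data. Correlations used exact permutation of arrays within a group (Python 3.11.15, scipy 1.17.1).

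The members and gene lists were chosen with earlier results of these data known. The text names the members, Ctnnb1, Cyp2b10, Egfr and Srf, up to 4 called members of each list per comparison with the largest change, and the 8 genes most and 3 least like Egr1. Alternatives were other filters, scalings, probe set rules, variance priors, array weights, a replicate block, only the compared groups and leaving out arrays. Placeholder gene names were left out.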

Additional observations from a re-analysis of the deposited data

Results flagged for a closer look

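The phenobarbital effect on Egr1 differed between the genotypes by the test of the difference itself: knockout minus wild type was 3.218 on the log2 scale (SE 0.57, adjusted p = 0.0047).

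Single arrays lay far from the rest of their group in 5 of 40 combinations of member probe set and group. Chance marks about 1 in 20 combinations, but these share arrays and are not separate trials. Knockout control 7 was flagged by each Jun probe set, and wild-type array 4 with phenobarbital for Jun and Junb. The count of 5 therefore cannot be judged against that rate. Fos was highest on knockout array 5 with phenobarbital, at 7.299 against 6.545 on the next array. The brighter Jun probe set was lowest on wild-type array 4 with phenobarbital, at 6.458 against 7.196, and highest on knockout control 7, at 8.647 against 7.001. The dimmer Jun probe set was also highest on knockout control 7, at 8.202 against 6.925. Junb was lowest on wild-type array 4 with phenobarbital, at 4.338 against 4.68.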

How the results depend on the processing

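The call of Egr1 in wild type with phenobarbital (changes from -4.06 to -3.69), in the interaction (3.02 to 3.46) and between genotypes with phenobarbital (3.03 to 3.44) held under each alternative run, 36, 35 and 36 in number, and no called change of a member reversed. The count of members called stayed at 1 in wild type and in the interaction. In knockout with phenobarbital it was 0, and 1 (Jun) with array weights, without knockout controls 2, 6 and 7, and with the replicate block, with a range of 0 to 1 when each array was left out. Between genotypes without phenobarbital it was 2, and 1 with no filter (Ier3) or the 60th percentile filter (Atf3), at which Ier3 and Junb were not tested. It was 0 with array weights, without knockout controls 2, 6 and 7 and with only the compared groups, and 0 to 3 when each array was left out. The Atf3 call was lost in 21 of 36 alternatives and the Ier3 call in 8 of 35. Between genotypes with phenobarbital it was 1, and 2 with quantile normalization and without knockout controls 2, 6 and 7 (Junb added), 3 with array weights (Fos and Junb), 4 with 1 weight per group and with only the compared groups (Atf3 too), and 1 to 2 when each array was left out. The cause was not tested.

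With the replicate number of the labels as a replicate block, 1 member was called in knockout with phenobarbital (Jun, 0.90, adjusted p = 0.0442) and 1 between genotypes without it (Ier3); the calls in the other 3 comparisons were as before. Same-numbered knockout arrays had correlations of their deviations between -0.70 and 0.63, and none correlated best with its own number, so the numbers were not taken to pair samples.

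Counts over all genes moved by over 1.5 times: in wild type from 532 to 1503 with array weights, 1241 with 1 weight per group, 923 over every probe set, 929 with only the compared groups, 810 without knockout controls 2, 6 and 7, and 350 and 315 without treated wild-type arrays 1 and 3. In knockout they moved from 284 to 461, 126, 696, 100 and 786 under the first 5 of these settings in that order, and to 157 without treated knockout array 1. Between genotypes without phenobarbital they moved from 3453 to 5444 over every probe set, 2078 with only the compared groups, 1535 without controls 2, 6 and 7 and 1967 with the block. With phenobarbital they moved from 2772 to 4574 and 4576 with the array and group weights, 4410 over every probe set, 1606 with the block, and 1798 and 1846 without treated wild-type arrays 3 and 4. For the interaction they moved from 121 to 323 with array weights, 247 over every probe set, 273 without controls 2, 6 and 7, and 75, 63 and 78 without treated wild-type arrays 1, 3 and 4. The counts over every probe set are out of 24089 probe sets, where the others are out of 13826 genes. As shares of probe sets they were 3.83%, 2.89%, 22.6%, 18.3% and 1.025%, in the order of comparisons above. The main shares of genes were 3.85%, 2.05%, 25%, 20% and 0.875%.

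For the gene lists, the fit without knockout controls 2, 6 and 7 was chosen after seeing the data. With phenobarbital in wild type it moved the counts of called genes from 3 to 5 (response and feedback), 2 to 4 (signalling) and 0 to 1 (heat shock), and in knockout from 1 to 2, 0 to 1 and 0 to 1. Between genotypes without phenobarbital they moved from 8 to 4 (early transcription factors), 13 to 7 (response and feedback), 9 to 5 (signalling) and 2 to 0 (Egr1 targets). With phenobarbital they moved from 4 to 7 (early transcription factors) and 3 to 5 (heat shock), and in the interaction from 0 to 1 (signalling). The called share of all genes moved as well, from 3.85% to 5.86% in wild type and from 2.05% to 5.685% in knockout. Between genotypes it moved from 25% to 11.1% without phenobarbital and from 20% to 29.1% with it. In the interaction it moved from 0.875% to 1.975%.

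The correlation of Egr1 and Ier2 in the knockout controls was the only one to pass under each scaling and probe set rule run. Leaving out each array gave r from 0.970 to 0.986, where a relation over 6 arrays cannot pass alone among 72 relations. Of the 8 genes most like Egr1, 6, 7 and 6 remained among the first 8 with quantile normalization, median centring and without knockout controls 2, 6 and 7, and Ier2 remained only with median centring. Fosb and part of the Ier3, Junb and Spry4 signals lay at or under the filter level, where a change is not measured well.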

Other observations

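Heat shock genes, which like immediate-early genes respond to cell stress, were not called with phenobarbital in either genotype: 0 of 10 tested, with median changes of 0.31 in wild type and 0.15 in knockout. Between genotypes 4 of the 10 were lower and none higher in knockout without phenobarbital, 40% against 25% of all genes called and 10.1% called lower. With phenobarbital 3 were lower, 30% against 20% called and 8.12% lower. A fit without knockout controls 2, 6 and 7 was added after the data were seen. There 4 were lower without phenobarbital and 5 with it, 40% and 50% of the list against 11.1% and 29.1% of all genes called. The 4 held Hspa1b and Hspa8 in place of Hspe1 and Hspd1. Hspb1, a small heat shock protein, was lower by 1.16 on the log2 scale (SE 0.13, adjusted p = 1.3e-06), from 8.54 ± 0.32 (SD, n = 5) in wild type to 7.38 ± 0.15 (SD, n = 7) in knockout, with no overlap between the arrays, and by 1.08 (adjusted p = 6.3e-05) without those 3 controls. With phenobarbital it was lower by 0.75 (SE 0.13, adjusted p = 0.00052). These differences ran opposite to the higher signals of Atf3 and Ier3 in the same comparison without phenobarbital, and no relation between them was tested.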
